A study of Mus musculus with 14 samples.

Results

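The transcription factor genes that specify and commit the B lineage were followed across 6 groups of sorted mouse bone marrow cells. The 8 genes were Ebf1, Pax5, Foxo1, Pou2af1, Lef1, Bach2, Bcl11a and Sox4. They were chosen by name, and every probe set that the array annotation pairs with one of those symbols was kept. This gave 32 of the 45101 probe sets on the array and 8 of the 18193 genes that could be tested. Each gene is led by its probe set of highest mean over all arrays, and the values are log2 signals as deposited. The arrays numbered 14, and each is labelled with the strain C57Bl6 and an adult age of 8 to 12 weeks, with no strain given apart for the fetal donors. Sorted marrow of wild type mice without transplant gave 4 groups of 2 arrays: ProB cells, PreB cells, and common lymphoid progenitors (CLP) without or with the surface protein Ly6D, called Ly6D- CLP and Ly6D+ CLP. A further 2 groups of 3 arrays, Pax5KO engrafted and WT engrafted, held cells derived from fetal liver of day 15 embryos, lacking Pax5 or wild type. Donors of either genotype bore a λ5 reporter, which marks cells that make this part of the surrogate light chain. The liver cells were put into sublethally irradiated hosts, and marrow cells positive for B220 and λ5 were sorted 4 weeks later. The engrafted cells are thus of fetal origin and had developed in an irradiated adult host, and the deleted stretch of Pax5 is not given in the labels. The labels call the arrays of a group biological replicates without saying which animals they came from or whether animals were pooled.

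B cells arise from lymphoid progenitors in the bone marrow through steps that a network of transcription factors controls. Ebf1 opens and activates B lineage genes in common lymphoid progenitors and acts together with Foxo1, a forkhead factor restrained by growth factor signalling. Pax5 then commits the cells by activating B cell genes and repressing genes of other lineages. Pou2af1 (also called OBF-1) is a coactivator that binds to octamer factors, Lef1 is a factor of the Wnt pathway expressed in early B cells, and Bach2 is a repressor that acts at the pre-B cell checkpoint. Bcl11a is a zinc finger factor needed in lymphoid progenitors, and Sox4 is an HMG box factor required for early B cell development.

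The upstream sequences of 4 of the genes are shown because 3 of them, Ebf1, Foxo1 and Pou2af1, were called higher together from Ly6D- to Ly6D+ CLP, and Bach2 had the largest difference of the 8 genes between the engrafted groups. Each is the 250 bases before a transcript start in RefSeq (assembly GRCm38.p6, plus strand, written 5′ to 3′), at chr11:44617850-44618099 for the first of 2 Ebf1 starts, chr3:52268087-52268336 for Foxo1, chr9:51213440-51213689 for Pou2af1 and chr4:32417185-32417434 for Bach2. The Bach2 window lies inside the span of the gene given below, before an internal transcript start. The windows of Ebf1, Foxo1 and Pou2af1 end just before the spans of their genes. Capitals mark a match to a searched motif.
Ebf1: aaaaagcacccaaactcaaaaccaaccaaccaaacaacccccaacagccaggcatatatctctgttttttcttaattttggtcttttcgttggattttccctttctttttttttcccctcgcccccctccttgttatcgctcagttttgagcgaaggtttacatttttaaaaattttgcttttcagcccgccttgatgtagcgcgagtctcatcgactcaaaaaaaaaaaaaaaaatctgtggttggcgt
Foxo1: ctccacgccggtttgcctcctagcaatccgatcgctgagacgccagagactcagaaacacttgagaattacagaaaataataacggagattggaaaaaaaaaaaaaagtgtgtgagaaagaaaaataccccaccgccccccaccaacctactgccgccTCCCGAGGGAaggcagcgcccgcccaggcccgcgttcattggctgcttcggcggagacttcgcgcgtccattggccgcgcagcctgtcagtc
Pou2af1: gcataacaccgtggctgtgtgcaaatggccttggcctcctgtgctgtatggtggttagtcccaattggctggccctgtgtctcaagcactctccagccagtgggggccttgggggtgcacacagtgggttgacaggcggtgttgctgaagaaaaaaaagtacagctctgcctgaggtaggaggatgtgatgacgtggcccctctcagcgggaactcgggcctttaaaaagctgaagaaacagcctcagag
Bach2: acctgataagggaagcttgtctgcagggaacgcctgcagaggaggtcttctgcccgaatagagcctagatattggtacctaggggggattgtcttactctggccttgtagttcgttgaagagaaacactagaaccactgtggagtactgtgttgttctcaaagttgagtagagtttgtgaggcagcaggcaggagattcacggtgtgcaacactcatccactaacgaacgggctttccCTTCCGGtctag
In the Foxo1 window the capitals mark the Ebf letters CCCNNGGGA, which were found on both strands at overlapping positions between -92 and -83 from the start. Of the 32851 upstream windows of that length in the RefSeq table, 5.60% held those letters. The Bach2 capitals mark the Ets letters CCGGAAG, read on the opposite strand at -12 to -6 and held by 6.91% of the windows. The Ebf1 and Pou2af1 windows shown held none of the 9 motifs searched. The others were the octamer ATGCAAAT (1.60% of windows), the E box CAGNTG (44.8%), the forkhead letters TGTTTAC (3.17%), the Lef1 and Tcf7 letters CTTTGAT (3.21%), the Maf and AP-1 letters TGAGTCA (4.46%), the Sox letters AACAAT (9.42%) and the Bcl11a letters TGACCA (11.4%). Among the other members, Sox4 and the third of 4 Lef1 windows held an E box, the fourth Lef1 window held the Bcl11a letters, and the Pax5 and Bcl11a windows held none. A match describes letters and does not show a binding site. The genes lie apart in the genome: in GRCm38.p6, Ebf1 spans 44618100 to 45008096 of chromosome 11, Pax5 44524748 to 44710694 of chromosome 4, and Bach2 32238413 to 32586109 of the same chromosome. Foxo1 spans 52268337 to 52350109 of chromosome 3 and Lef1 131110297 to 131224357 of chromosome 3. Pou2af1 spans 51213690 to 51240079 of chromosome 9, Bcl11a 24076564 to 24173558 of chromosome 11, and Sox4 28948919 to 28953699 of chromosome 13.

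The sorts were compared with marker genes. Ly6d, the surface protein that names the CLP sorts, read 3.61 and 3.02 on the Ly6D- arrays and 11.25 and 10.30 on the Ly6D+ arrays. The λ5 gene Igll1 read 11.41 to 13.12 on the 6 engrafted arrays. Of 5 T cell markers measured, all lay at the floor of the table in every group, except that Cd4 reached 3.08 in WT engrafted cells. The PreB arrays differed from the ProB arrays in markers of other cells. Of 8 granulocyte and monocyte markers 6 were called higher in PreB. The summed level of the 8 was 13.32 and 14.06 against 6.82 and 6.98 in ProB. That sum was also high in the progenitors, 12.55 and 12.99 in Ly6D- CLP and 10.98 and 11.39 in Ly6D+ CLP. There Mpo was the brightest of the 8, at 12.38 and 12.12 in Ly6D- CLP and 10.70 and 11.04 in Ly6D+ CLP. In PreB Mpo read 7.84 and 6.56. S100a9, Ngp and Camp lay at the floor in Ly6D+ CLP, while Ngp read 11.03 and 11.85 in PreB. S100a8, a granulocyte protein, read 12.02 and 12.85 in PreB and 3.18 and 3.29 in ProB, and Ly6D- CLP array 2 read 10.59 against 2.39 on array 1. Of 3 NK cell markers 2 were called higher in PreB than in ProB, while Ncr1 lay at the floor on both PreB arrays. The NK cell sum was 8.42 and 8.83 in PreB and 9.18 and 9.20 in Ly6D- CLP. Of 4 dendritic cell markers 2 were called higher. Ccr9 read 10.49 and 10.38 against 2.93 and 2.97, and Siglech 3.60 and 5.11 against 2.33 on both ProB arrays. Bst2 and Itgax were not called, and Bst2 read 4.49 and 5.08 against 5.37 and 4.99. Ccr9 also read 10.18 and 10.51 on the Ly6D- CLP arrays. The 3′ minus 5′ log2 signal of the actin control, a sign of RNA or labelling quality, was 7.27 and 6.71 on the PreB arrays, 5.57 on Ly6D+ CLP array 2, 4.57 on Pax5KO array 3 and 2.51 to 3.67 elsewhere. Xist, the RNA made from the inactive X chromosome of female cells, read 10.71 to 13.16 on the Pax5KO and ProB arrays and WT engrafted array 3, and 2.33 to 2.73 on the rest. The part of these properties in the results below was not tested. In sorted bulk samples, fewer cells of a type and less RNA per cell cannot be told apart.

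Ebf1, the pioneer factor of the lineage, read 6.55 and 5.24 on the Ly6D- CLP arrays, 11.39 and 11.68 for Ly6D+ CLP, 10.99 and 12.33 in ProB, and 13.34 and 13.58 in PreB. It read 10.90, 11.09 and 11.07 on the Pax5KO arrays and 12.41, 12.36 and 11.71 on the WT engrafted arrays. On the leading probe set Ly6D- CLP lay far below every other group, Ly6D+ CLP and ProB overlapped, and PreB was above all others. There the Pax5KO arrays all lay below those of the WT engrafted and Ly6D+ CLP groups. On 1416302_at and 1448293_at the Pax5KO means were above those of Ly6D+ CLP (9.82 against 9.69, and 9.89 against 9.35). The Pax5KO and WT engrafted arrays overlapped on both. Of 5 Ebf1 probe sets 4 were above the floor on at least 7 arrays, where above means more than 0.5 over the lowest value of the table, and correlated with the leading one at r of 0.84 to 0.98 over the 14 arrays. One of them, 1439789_at, read 8.35, 8.26 and 5.89 on the Pax5KO arrays and 8.83, 9.16 and 7.61 on the WT arrays, so that array 3 was the lowest in both groups. The 3′ minus 5′ signal of the Gapdh control was 5.79 and 5.44 on those 2 arrays and at most 4.88 on all others.

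Foxo1 read 5.80 and 5.69 on the Ly6D- CLP arrays, 9.27 and 9.72 for Ly6D+ CLP, 8.34 and 9.40 in ProB, and 11.17 and 11.34 in PreB. The engrafted cells read 9.70, 9.44 and 9.23 without Pax5 and 10.16, 10.63 and 9.68 with it. The order of the groups was that of Ebf1 at both ends, with Ly6D- CLP lowest and PreB highest, and the groups between them overlapped with their neighbours. Over the 14 arrays the leading probe sets of Foxo1 and Ebf1 correlated at r = 0.966. Ranked so by likeness to Ebf1, Foxo1 was the first of 4266 genes. By the 6 group means it ranked 11 (r = 0.976). Of 4 Foxo1 probe sets 3 were above the floor on at least 7 arrays, with r of 0.91 and 0.92 to the leading one.

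Pou2af1, the coactivator of octamer factors, spanned 10.71 log2 units between its lowest and highest group means, the widest of the 8 genes. Its only probe set read 2.48, at the floor, on both Ly6D- CLP arrays, and 10.50 and 10.29 in Ly6D+ CLP. It read 11.86 and 12.11 in ProB, 13.01 and 12.90 in PreB, 12.11, 12.37 and 11.78 in Pax5KO engrafted cells, and 13.05, 13.60 and 12.91 in WT engrafted cells. The levels fell into 4 sets that did not overlap: Ly6D- CLP, Ly6D+ CLP, ProB with Pax5KO engrafted cells, and PreB with WT engrafted cells.

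Lef1 was at the floor in Ly6D- CLP (2.49 and 2.46) and read 3.23 and 6.10 for Ly6D+ CLP, 8.04 and 9.08 in ProB, and 7.33 and 8.18 in PreB. It read 6.57, 7.18 and 6.84 in Pax5KO and 8.11, 8.12 and 7.64 in WT engrafted cells. The Ly6D+ CLP arrays differed from each other by more than those of any other group, and PreB, WT engrafted and ProB cells overlapped at the top. The dimmer probe set 1421299_a_at read 2.74 and 2.82 for Ly6D+ CLP, 6.12 and 5.64 in ProB, and 2.74 and 4.11 in PreB. It put PreB below ProB without overlap, whereas the 2 groups overlapped on the leading probe set.

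Bach2, the repressor, read 7.34 and 8.17 on the Ly6D- CLP arrays, 8.57 and 8.72 for Ly6D+ CLP, 9.99 and 10.29 in ProB, and 12.58 and 12.39 in PreB. The Pax5KO engrafted cells read 9.55, 9.81 and 8.15, and the WT engrafted cells 12.36, 13.15 and 12.24. The means were higher at each step from Ly6D- CLP to PreB, Pax5KO cells lay below ProB, and WT engrafted and PreB cells shared the top. The other 2 probe sets also put every Pax5KO array below every WT array: 1437667_a_at read 8.25, 8.78 and 8.69 against 11.95, 12.37 and 12.19, and 1445460_at read 4.99, 5.44 and 6.11 against 8.11, 7.90 and 9.22.

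Bcl11a was the one member whose leading probe set had its highest mean in Ly6D- CLP. This probe set read 10.99 and 11.25 on the Ly6D- CLP arrays, 10.86 and 10.75 for Ly6D+ CLP, 9.45 and 10.50 in ProB, and 7.27 and 7.54 in PreB. It read 9.91, 10.01 and 9.80 in Pax5KO and 9.50, 9.91 and 8.96 in WT engrafted cells. PreB lay below all other groups, and ProB and both engrafted groups overlapped. Of 7 probe sets 4 were above the floor on at least 7 arrays, with r of 0.61 to 0.79 to the leading one. Among them 1456632_at and 1457072_at had higher means in Ly6D+ CLP (9.93 and 9.38) than in Ly6D- CLP (9.31 and 9.06).

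Sox4 read 11.92 and 12.39 on the Ly6D- CLP arrays, 12.04 and 11.45 for Ly6D+ CLP, 9.12 and 10.03 in ProB, and 12.76 and 12.68 in PreB. It read 12.27, 11.88 and 10.90 in Pax5KO and 11.82, 11.83 and 11.45 in WT engrafted cells. Both ProB arrays lay below every other array, and apart from PreB the other groups overlapped with a neighbour. Of 8 probe sets 4 were above the floor on at least 7 arrays. Those named 1419156_at and 1419155_a_at also had ProB lowest, at 6.62 and 7.02 and at 6.26 and 5.93, but PreB was not their highest group: the former read 9.31 and 9.28 in PreB and 10.42 and 9.93 in Ly6D- CLP.

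Pax5 was dim. The leading probe set 1454401_at read 3.03 and 2.83 on the Ly6D- CLP arrays, 6.17 and 3.41 for Ly6D+ CLP, 3.92 and 4.90 in ProB, 5.01 on both PreB arrays, 7.95, 7.92 and 7.57 in Pax5KO and 6.76, 6.18 and 6.60 in WT engrafted cells. It was thus highest in the Pax5KO cells, and the annotation table gives no target accession for it. The dimmer 1421765_at, which has one, read 2.32, 2.32 and 2.34 in Pax5KO and 3.42, 3.38 and 2.43 in WT engrafted cells, and 2.99 and 4.88 in PreB. All Pax5KO arrays were at the floor on it, and WT engrafted array 3 was within 0.5 of the floor too. So were all ProB (2.56 and 2.32), Ly6D+ CLP and Ly6D- CLP arrays, so that the floor reading was not particular to the Pax5KO cells. Over the 14 arrays the 2 probe sets correlated at r = -0.04. A probe set outside the deleted part does not test the genotype. Whether either probe set lies outside it is not known, so neither reading checks the labels.

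**Figure D1:**
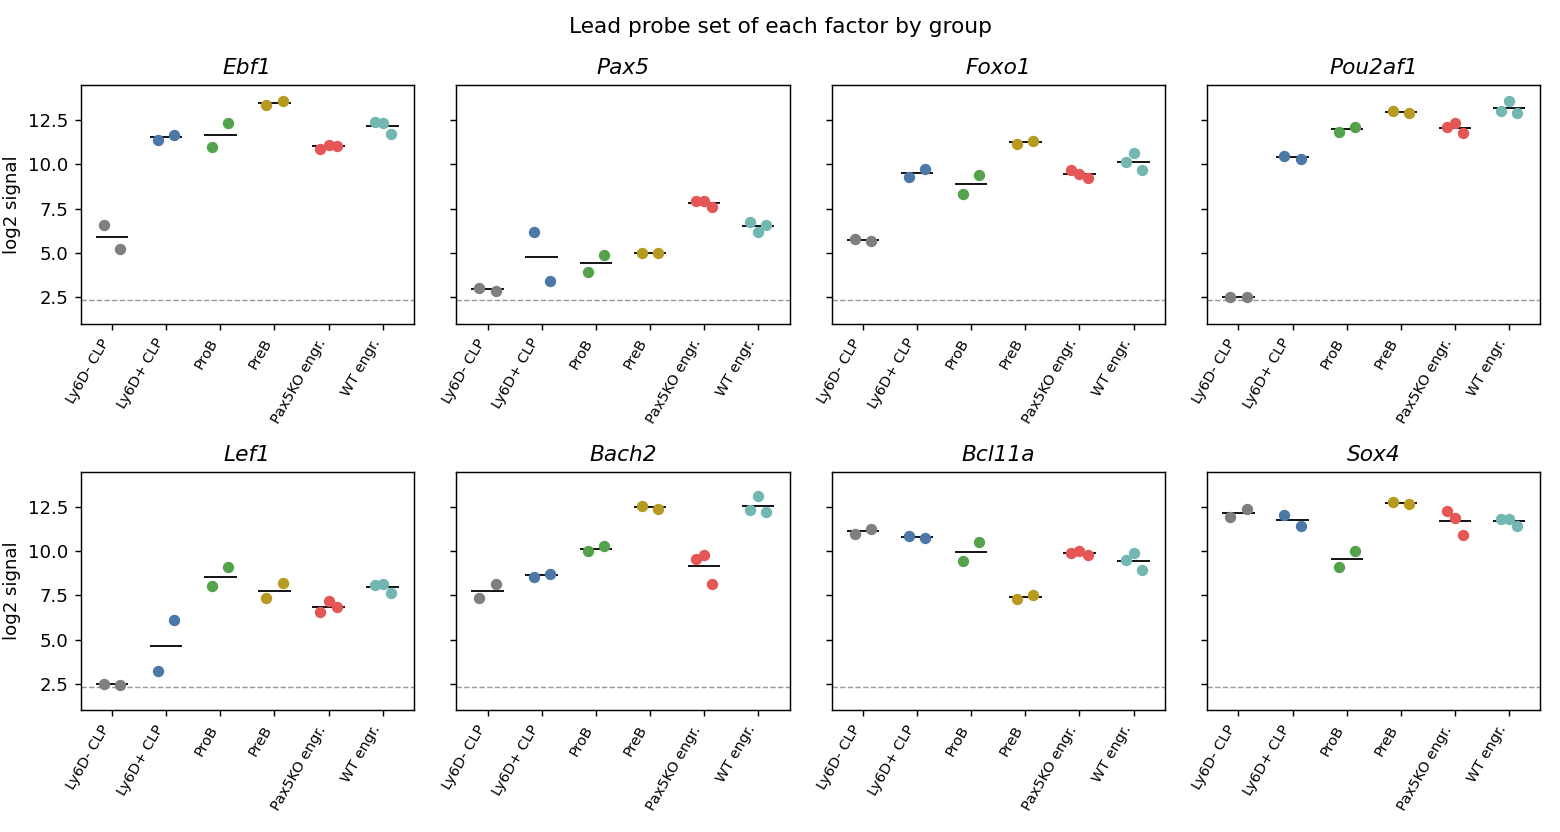
Log2 signal (y axis) of the leading probe set of each of the 8 factors on the 14 arrays, by group (x axis). Points are arrays, black bars are group means, and the dashed line is the lowest value of the table, 2.32. Ebf1, Foxo1 and Pou2af1 are lowest on the Ly6D- CLP arrays, Bcl11a is lowest in PreB, Sox4 is lowest in ProB, and Bach2 is 9.17 in Pax5KO against 12.59 in WT engrafted cells.

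**Figure D2:**
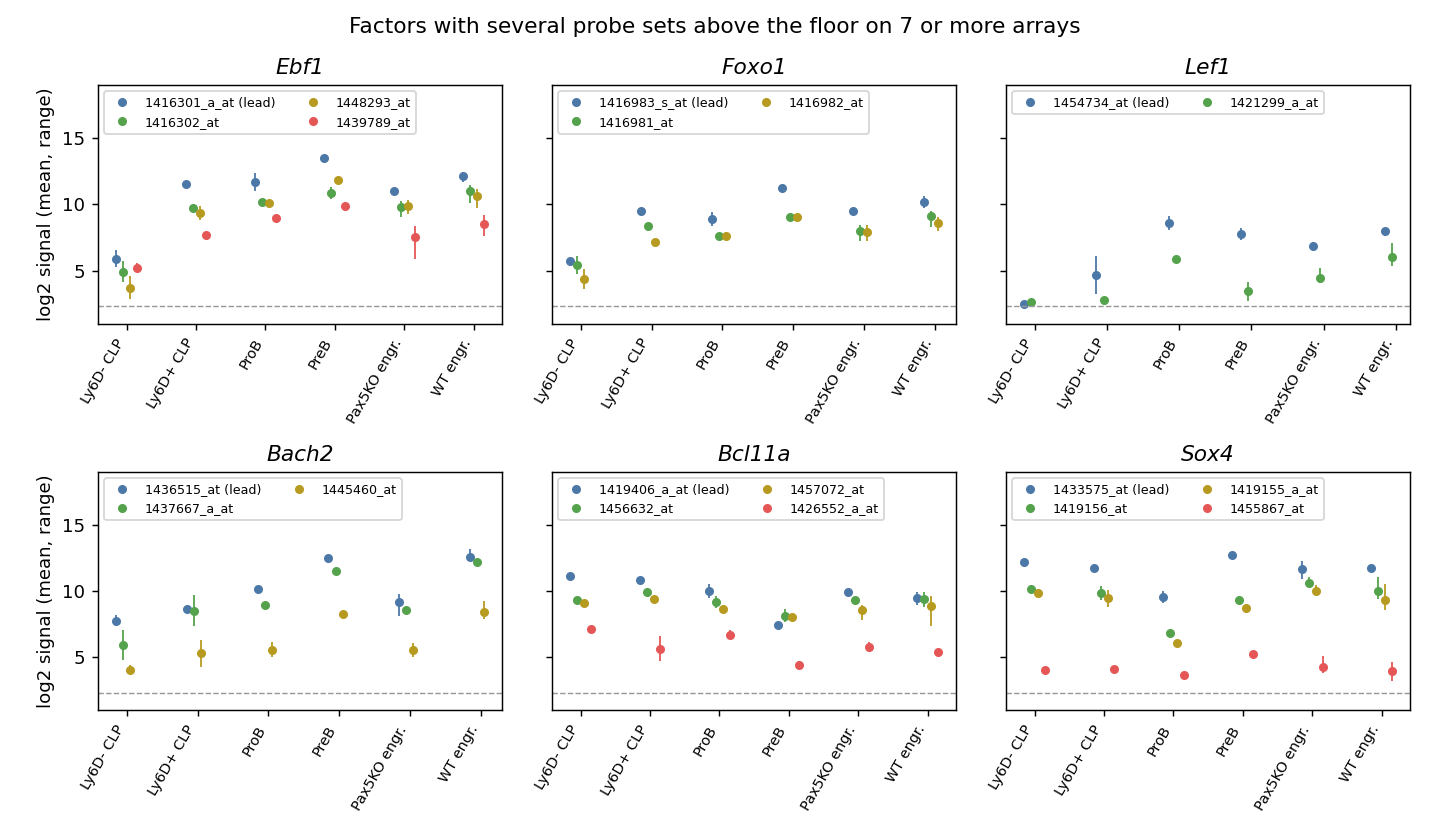
Log2 signal (y axis) by group (x axis) for the 6 factors with more than 1 probe set above the floor on at least 7 arrays. Points are group means, vertical lines run from the lowest to the highest array, colours are probe sets, and the dashed line is the lowest value of the table. All 3 Bach2 probe sets are lower in Pax5KO than in WT engrafted cells, while the Sox4 probe sets differ in where PreB stands.

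Pax5KO and WT engrafted cells were sorted in the same way, and their donors differed in Pax5. Markers of B cell stage and of other cells also differed between them. Of 4 pre-B and later B markers 3 were called lower without Pax5, namely Ms4a1 (-9.21), Cd2 (-6.43) and Cd22 (-4.43), and their summed level was 6.32 to 7.39 against 11.91 to 12.90. Cd2 lay at the floor on all Pax5KO arrays. Of 4 lymphoid progenitor markers 2, the growth factor receptors Flt3 (5.90) and Kit (3.04), were called higher. Klrd1 of 3 NK cell markers (3.33) and Lyz2 of 8 granulocyte and monocyte markers (2.52) were called higher too. The other 7 granulocyte and monocyte markers were not called, and the median difference of the 8 was -0.70. Their summed levels overlapped, at 8.71 to 9.42 in Pax5KO and 8.01 to 10.27 in WT engrafted cells. The NK cell marker Ncr1 lay at the floor. Of 3 plasma cell markers Jchain was called higher (6.90) and Sdc1 lower (-3.12), and Prdm1 lay at the floor in both groups. The part of these markers in the differences of the members was not tested.

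Between these groups Bach2 was 3.42 ± 0.44 log2 units lower without Pax5 (SE of the fit, 3 arrays against 3), a signal 10.7-fold dimmer. Pou2af1 was 1.10 ± 0.20 lower, 2.14-fold dimmer. Neither factor's arrays overlapped between the groups, as was so for 19.6% of all genes. The limma test, adjusted over all genes by Benjamini-Hochberg, gave adjusted p-values of 0.00242 and 0.0122, and 2 of the 8 members were called at the threshold of 0.05, both lower. Of all 18193 genes 5.94% were called, 3.64% higher and 2.29% lower. The median difference of the members was -0.90, against 0.00 over all genes. With every probe set tested on its own, all 3 Bach2 probe sets were called lower, at -3.42, -3.59 and -2.89.

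The other 6 members were not called between the engrafted groups. Ebf1 was 1.14 ± 0.41 lower (adjusted p 0.195 in limma), with a 95% interval of the difference from -2.08 to -0.21 before adjustment for multiple tests. Foxo1 differed by -0.70 (-1.41 to 0.01), Lef1 by -1.09 (-2.57 to 0.38), Bcl11a by 0.45 (-0.22 to 1.12) and Sox4 by -0.01 (-0.87 to 0.84). The leading Pax5 probe set differed by 1.30 (-0.07 to 2.67). On the leading probe sets, the Ebf1, Pax5 and Lef1 arrays of these 6 did not overlap between the groups. Those of Foxo1, Bcl11a and Sox4 did. Over all genes 11.9% lay apart with Pax5KO higher and 7.65% with Pax5KO lower. The Pou2af1 call was lost when Xist status was added to the fit (-0.83). Xist was high on all 3 Pax5KO arrays and on WT array 3, and WT engrafted was the only group that held both states. That fit therefore sets the Pax5KO arrays against WT array 3 alone. It cannot tell Xist status from other properties of that array. Weighting the arrays by their quality added Ebf1 (-1.30), Pax5 (1.41), Foxo1 (-0.77) and Lef1 (-1.17) to the calls, and with these weights 16.8% of all genes were called, against 5.94% without.

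**Figure D3:**
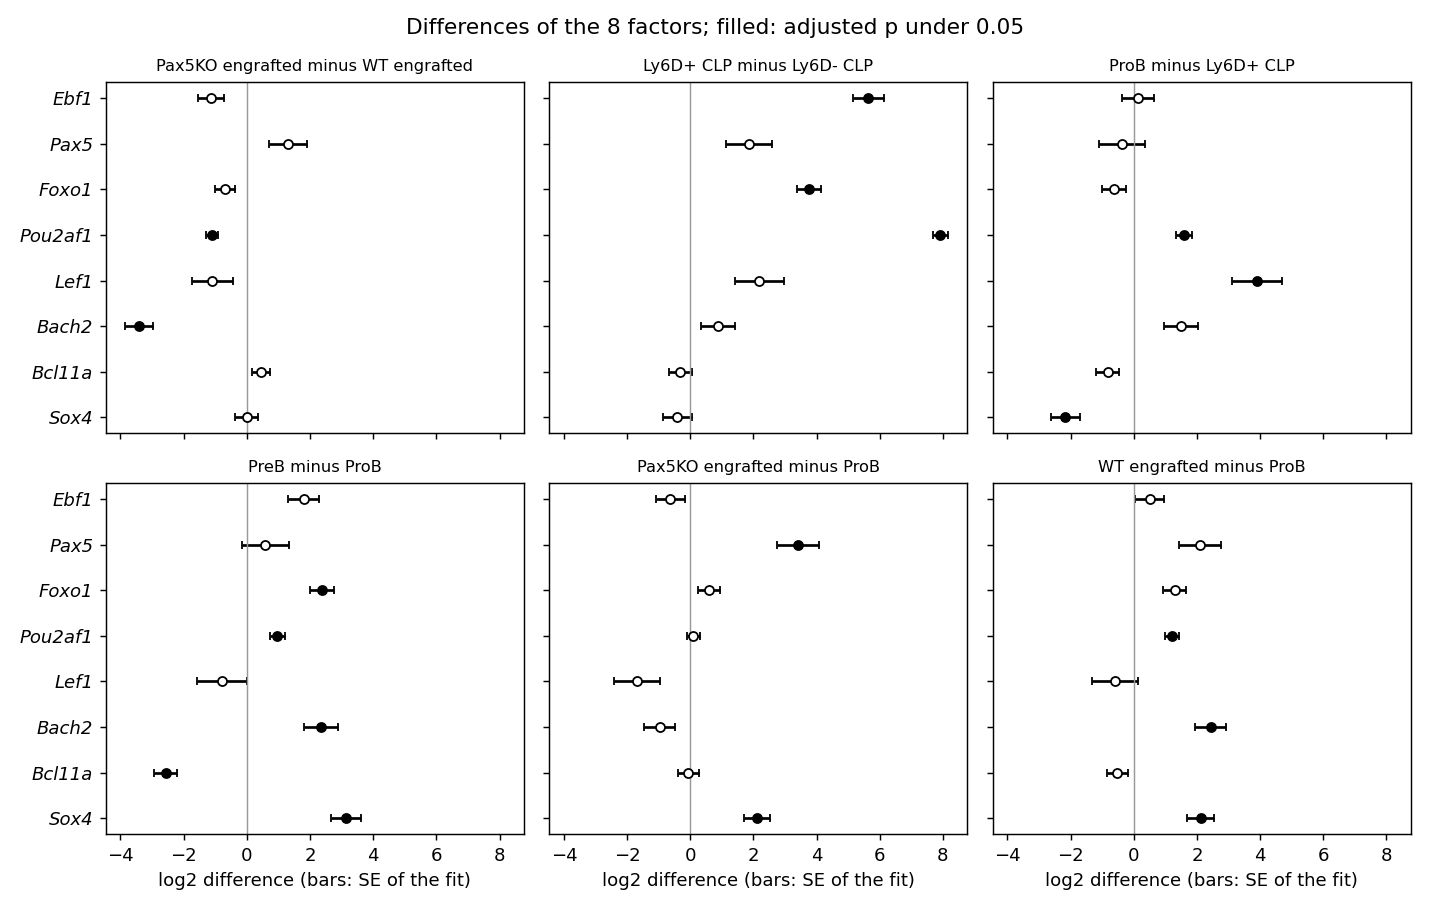
Log2 difference (x axis) of each of the 8 factors (y axis) in each of the 6 comparisons, on the leading probe set. Bars are the standard error of the limma fit, and filled points have an adjusted p under 0.05. Bach2 and Pou2af1 are the filled points between the engrafted groups, at -3.42 and -1.10, and Pou2af1 at 7.92 is the farthest from 0 of all.

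The step from Ly6D- to Ly6D+ CLP compared lymphoid progenitors before and after they gain the B lineage marker Ly6D. Ebf1 rose by 5.64 ± 0.50 log2 units (2 arrays against 2, adjusted p 0.000888 in limma), and Foxo1 by 3.75 ± 0.38 (adjusted p 0.00180), 49.9-fold and 13.5-fold in signal. Pou2af1 rose by 7.92 ± 0.24 (adjusted p 1.01e-06), a lower bound because the Ly6D- arrays lay at the floor. These were the 3 members called, all higher, where 1.45% of all genes were called, 0.813% higher and 0.638% lower. That share varied with the arrays used: 264 genes were called with all arrays, 694 to 1144 when 1 of the 4 was left out, and 102, or 0.561% of all genes, with array weights. The members' median difference was 2.02. On their own, 3 of the Ebf1 probe sets were called, at 5.64, 4.77 and 5.66, and 1 of the Foxo1 probe sets. The calls held when each of the 4 arrays was left out in turn, Ly6D- array 2 with its high S100a8 included. Lef1 and Pax5 each read high on 1 of the 2 Ly6D+ arrays: without Ly6D+ array 1 Lef1 was called at 3.62 (adjusted p 0.00391), and without array 2 Pax5 was called at 3.24 (adjusted p 0.00271), against 2.19 and 1.86 with both. Bach2 (0.89, interval -0.34 to 2.13), Bcl11a (-0.32, -1.14 to 0.50) and Sox4 (-0.41, -1.45 to 0.64) were not called.

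From Ly6D+ CLP to ProB, Lef1 rose by 3.89 ± 0.79 (adjusted p 0.0207 in limma) and Pou2af1 by 1.59 ± 0.24 (adjusted p 0.00557). Sox4 fell by 2.17 ± 0.46 (adjusted p 0.0241), 4.50-fold in signal. These 3 members were called where 7.29% of all genes were called, 1.93% higher and 5.36% lower, or 351 genes higher and 976 lower. After quantile normalization the split was 496 higher and 755 lower. Both Lef1 probe sets were called on their own (3.89 and 3.10), as were 3 Sox4 probe sets (-2.17, -3.02 and -3.36). Ebf1 differed by 0.13 (interval -1.02 to 1.27) and Foxo1 by -0.62 (-1.49 to 0.25). The Sox4 call was lost without ProB array 1 (-1.72, adjusted p 0.0890) or Ly6D+ array 1 (-1.88, adjusted p 0.0886), and the Lef1 call without ProB array 2 (3.38, adjusted p 0.112). Without Ly6D+ array 1 the Lef1 difference was 2.46, and without array 2 Pax5 was called lower at -1.76 (adjusted p 0.0356). With array weights no member was called, and 2.02% of all genes were. Xist was high on both ProB arrays and low on both Ly6D+ arrays, so the sex of the cells and the group cannot be told apart here.

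From ProB to PreB, Foxo1 rose by 2.38 ± 0.38 (adjusted p 0.00517 in limma), Bach2 by 2.34 ± 0.54 (0.0256), Pou2af1 by 0.97 ± 0.24 (0.0343) and Sox4 by 3.14 ± 0.46 (0.00329). Bcl11a fell by 2.57 ± 0.36 (0.00262), 5.94-fold in signal. These were 5 of the 8 members, and of all genes 11.5% were called, 6.35% higher and 5.19% lower. Ebf1 was 1.80 ± 0.50 higher and missed the threshold (adjusted p 0.0538, interval 0.66 to 2.95), and it was called without ProB array 2 (2.47, adjusted p 0.0244), after quantile normalization (0.0417), with the filter on dim genes (0.0181) and with array weights (0.0450). When any 1 of the 4 arrays was left out, Pou2af1 and Bach2 were no longer called, with adjusted p of 0.0799 to 0.138 and of 0.0813 to 0.107, although their differences stayed at 0.85 to 1.09 and at 2.19 to 2.49, while Foxo1, Sox4 and Bcl11a still were. Pou2af1 was also lost after quantile normalization (0.85, adjusted p 0.0763), with the filter on dim genes (adjusted p 0.0551) and with array weights, as was Bach2 with weights (0.0890), under which 7.98% of all genes were called. On their own, 1 of the Foxo1 probe sets, 3 of the Sox4 and 2 of the Bcl11a probe sets (-2.57 and -2.24) were called in the direction given. Some granulocyte, NK cell and dendritic cell markers, the actin 3′ minus 5′ signal and Xist differed between PreB and ProB as given above. Their part in these differences was not tested. Since ProB is the upper group of one step and the lower group of the next, the fall and rise of Sox4 share the same 2 ProB arrays.

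The engrafted groups were set beside ProB cells, and both comparisons share the ProB arrays. In Pax5KO engrafted cells the leading Pax5 probe set read 3.40 ± 0.67 higher than in ProB (adjusted p 0.0230 in limma) and Sox4 2.11 ± 0.42 higher (adjusted p 0.0232). These 2 members were called where 5.24% of all genes were called, 4.22% higher and 1.02% lower, or 768 genes higher and 185 lower, and 443 higher and 258 lower after quantile normalization. In WT engrafted cells Pou2af1 was 1.20 ± 0.22 higher than in ProB (adjusted p 0.0187), Bach2 2.44 ± 0.49 (0.0286) and Sox4 2.12 ± 0.42 (0.0263). All 4 pre-B and later B markers measured were also called higher in WT engrafted cells than in ProB, with a median difference of 4.25; Cd2 read 7.93 to 9.28 against 2.44 and 2.55, both at the floor. Of the same 4, Pax5KO cells had Il2ra higher than ProB (2.53) and Ms4a1 and Cd22 lower (-4.38 and -2.46). The part of these markers was not tested. There 3 members and 4.93% of all genes were called, 3.63% higher and 1.30% lower, or 661 higher and 236 lower, and 440 higher and 429 lower after quantile normalization. The corresponding values in Pax5KO cells were 0.10 for Pou2af1 (interval -0.40 to 0.60) and -0.97 for Bach2 (-2.10 to 0.15), neither of them called. Lef1 read 1.69 below ProB in Pax5KO and 0.60 below it in WT engrafted cells, and neither was called. Both engrafted groups differ from ProB in fetal origin and irradiated host, and Pax5KO cells in genotype as well. The engrafted cells were also sorted by B220 and by the λ5 reporter that their donors bore. These cannot be told apart here. Xist read 2.33 and 2.58 on WT engrafted arrays 1 and 2 and 10.71 and 11.49 in ProB, and its part was not tested.

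Many of these calls were lost when any of several arrays was left out, with differences near those of all arrays. Without ProB array 1, the calls for Pax5 (2.91) and Sox4 (1.66) in the Pax5KO comparison and for Pou2af1 (1.08), Bach2 (2.29) and Sox4 (1.67) in the WT comparison were lost (adjusted p 0.0599 to 0.0900). Without ProB array 2, Pou2af1 (1.32) and Bach2 (2.59) were lost in the WT comparison (adjusted p 0.0510 and 0.0905) and Foxo1 was called higher at 1.82 (0.0300). Without Pax5KO array 1 or array 2, Pax5 was 3.33 and 3.35 (adjusted p 0.0763 and 0.0716) and Sox4 1.82 and 2.01 (0.0684 and 0.0765). Without WT array 1 or array 2, Bach2 was 2.55 and 2.16 and Sox4 2.06 in both (0.0701 to 0.0833). Averaging the 2 Pax5 probe sets gave a difference of 1.64 (adjusted p 0.0587).

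Relatives and partners of the 8 factors were listed beside them. Of 18 measured, among them Ebf2 and the octamer factor Pou2f2, 2 were called higher without Pax5, where 3.64% of all genes were: Foxo3, a second forkhead factor, at 0.98 ± 0.22 and Sox12 at 0.78 ± 0.16. None was called from Ly6D- to Ly6D+ CLP. Foxo3, Mafk, a small Maf protein that pairs with Bach factors, and Sox12 fell from Ly6D+ CLP to ProB, by 2.41, 1.77 and 1.29, 3 of 18 where 5.36% of all genes fell. Foxo3, Mafk and Maff rose from ProB to PreB, by 2.07, 2.10 and 3.61, again 3 of 18, where 6.35% of all genes rose. The list's median difference lay between -0.07 and 0.01 in all 6 comparisons.

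Other transcription factors of early lymphoid and B cells were taken from a list of 30. Without Pax5, 5 were called lower and none higher, where 2.29% of all genes were lower and 3.64% higher: Ikzf3 (-5.83), which encodes Aiolos, Spib (-4.94), Irf4 (-4.14), Id3 (-3.71) and Irf8 (-1.67). From Ly6D- to Ly6D+ CLP Spib rose by 3.28 and Ikzf2 fell by 3.26. From Ly6D+ CLP to ProB 5 rose, among them Irf4 (4.50) and Ikzf3 (4.32), and 5 fell, among them Zfp521 (-4.21), where 1.93% of all genes rose and 5.36% fell. From ProB to PreB 10 rose, where 6.35% of all genes did, among them Ikzf2 (3.88) and Ikzf3 (3.60), and Erg fell by 3.99. Of 16 factors of other lineages, Notch1, the receptor that drives T cell fate, and Id2, an inhibitor of E proteins, were called higher without Pax5, by 2.58 and 1.85. In PreB cells Id2 and Eomes, a factor of NK and T cells, were 7.96 and 6.49 above ProB, beside the other cell markers given for those arrays. Where one group lay at the floor, the size of a difference is a lower bound and has no rank. This held for Ikzf3 in Pax5KO (mean 2.44) and in Ly6D+ CLP (2.46), and for Zfp521 (2.62), Ikzf2 (2.60), Eomes (2.32) and Maff (2.32) in ProB.

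Genes described as bound or activated by Ebf1 were listed from general knowledge, with Foxo1, Pou2af1 and Pax5 among them. Of 14 measured, 10 rose from Ly6D- to Ly6D+ CLP, where 0.813% of all genes were called higher, and none fell. Their median difference was 3.07, against 0.00 over all genes. Vpreb1 and Igll1, which encode the surrogate light chain, rose by 8.24 ± 0.48 and 8.07 ± 0.44, Blk by 5.02, and Cd79a and Cd79b, the signalling chains of the B cell receptor, by 2.90 (a lower bound, with Ly6D- CLP at the floor) and 2.24. Without Pax5, 6 of the 14 were called lower, where 2.29% of all genes were, led by Fcgr2b (-5.73), Vpreb3 (-3.47) and Cd79a (-3.10). Igll1 and Vpreb1 differed by 0.90 and 1.02 between the engrafted groups and were not called, and the sort itself used a λ5 reporter. From ProB to PreB Igll1 and Vpreb1 fell by 4.49 and 3.09, while Egr3 (6.02), Foxo1 and Pou2af1 rose.

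Of 9 measured genes described as activated by Foxo1, 3 rose from Ly6D- to Ly6D+ CLP, where 0.813% of all genes did: Rag1, the recombinase subunit (4.15), Blnk, an adaptor of the pre-B cell receptor (3.25), and Ccr7 (2.72). Rag1 fell by 3.57 from Ly6D+ CLP to ProB, and Klf2 by 2.14. From ProB to PreB 5 rose, where 6.35% of all genes did, led by Klf2 (5.10), Ccng2 (3.37) and Rag1 (3.05). Without Pax5 Klf2 was the 1 gene called, lower by 6.62 ± 0.39, while Rag1 differed by 0.33 and Il7r by 0.52. The list of genes that Pax5 is described to activate includes Ebf1, Lef1 and Bach2, and of its 15 measured genes 10 were lower without Pax5, where 2.29% of all genes were, and none higher, with a median of -3.10. Among them were Fcrla (-9.61), an Fc receptor-like protein, and Cd72 (-9.17), a B cell surface receptor, whose Pax5KO means of 2.66 and 3.02 lay near the floor. Bach2 stood among the 10 while Ebf1 and Lef1 did not pass the test.

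**Figure D4:**
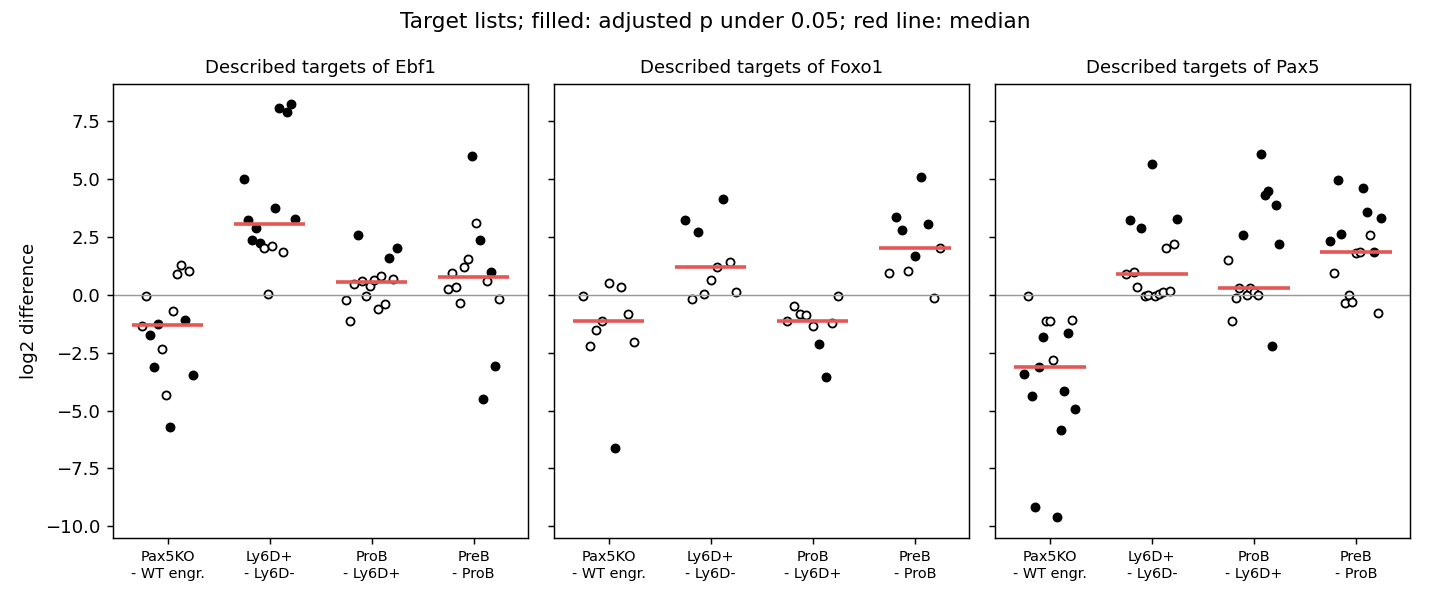
Log2 difference (y axis) of each measured gene described as a target of Ebf1, Foxo1 or Pax5 in 4 comparisons (x axis). Filled points have an adjusted p under 0.05, and the red line is the list's median. The medians of the Ebf1 list are -1.30, 3.07, 0.54 and 0.77 from left to right, and that of the Pax5 list is -3.10 between the engrafted groups.

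The genes whose pattern was most like that of each factor were ranked by the correlation of leading probe sets over the 14 arrays, among 4266 genes whose group means spanned at least 2 log2 units. The arrays share their groups, so these values describe shared group levels. Pou2af1 was followed most closely by Prkcb (r = 0.985), a protein kinase C of B cell receptor signalling, St6gal1 (0.968), a sialyltransferase, and Pde2a (0.954). Prkcb was also among the first 3 for Ebf1 (0.944) and Foxo1 (0.954), with Chchd10 (0.960) second for Ebf1 and Zdhhc14 (0.952) the third for Foxo1. Bach2 was led by Gpd1l (0.981), Mindy2 (0.970) and Adgre5 (0.961), Lef1 by Incenp (0.932), Larp1b (0.930) and Nudt4 (0.918), and Bcl11a by Idh2 (0.945), Ext2 (0.941) and Sumf2 (0.941). Sox4 was led by Flcn (0.950), Fam160b1 (0.930) and Pogz (0.922), and Pax5 by Lgmn (0.879), Myl4 (0.875) and Zfpm1 (0.858), the lowest values of the 8. Among the members themselves, Pou2af1 correlated with Ebf1 at 0.94 and with Foxo1 at 0.92. Bcl11a ran against Ebf1 (-0.67) and Foxo1 (-0.70), and Sox4 followed neither (-0.07 and 0.15).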

How the data were processed

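Total RNA of sorted marrow cells was measured on Affymetrix mouse arrays. The authors deposited 1 log2 value per probe set and array; RMA, GCRMA and limma are named per the submitters' processing notes, with no versions, and which of them made the values is not given in the sources used here. Values ran from 2.32, a floor that each array shares, to 16.1, and array medians from 2.41 to 2.52. On each array 46.0% to 50.3% of probe sets lay within 0.1 of the floor. The medians thus cannot show whether brighter values share a scale. No further scaling was applied in the main fit, and quantile normalization was run as an alternative. Probe sets were named through the platform annotation and the RefSeq gene table (GRCm38.p6): 34945 had 1 symbol, 932 several and 9160 none here. The probe set of highest mean represented each gene. Genes were tested with limma 3.58.1 in R 4.3.3, with a mean per group over all 14 arrays (8 residual degrees of freedom), two-sided, adjusted by Benjamini-Hochberg over 18193 genes, and called under 0.05 with no minimum fold; 95% intervals come from the same fit and are not adjusted. A group was at the floor when every array lay within 0.5 of the table's lowest value. The fit was tested on simulated data. The number of arrays limits the precision.

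The members, lists and comparisons were chosen with earlier results of these data known. Named list genes are the 3 called with the largest difference per list and comparison, and any that a sentence on the members needs. Tcf7 and other list genes that no probe set named here were not analysed. The deviations of same-numbered Pax5KO and WT arrays from their group means correlated at 0.16, 0.33 and 0.56. Pax5KO array 1 correlated more with WT array 2 (0.41). The main fit did not pair these arrays. A replicate block paired them in an alternative fit, which changed no member call between the engrafted groups. Alternatives were quantile normalization, a filter on dim genes, averaged or single probe sets, fits of 2 groups, array weights, a replicate block, an Xist term, leaving out arrays, and, chosen after seeing the data, a fit without PreB arrays. The 2 PreB arrays are named here by their titles (2 and 3), and matched to ProB in the replicate block by the description numbers.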

Additional observations from a re-analysis of the deposited data

How the results depend on the processing

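With groups of 2 or 3 arrays, most calls depended on the spread pooled over all 14 arrays. In fits of only the 2 groups compared, no member was called in any comparison, and 697, 1, 3, 487, 191 and 100 genes were called from Pax5KO against WT, the 3 steps, and Pax5KO and WT against ProB. Such a fit has fewer samples. With array weights the genes called between the engrafted groups, at the Ly6D step and at the ProB step were 3065, 102 and 368, and the members 6 between the engrafted groups, 0 at the ProB step and 1 in WT against ProB. An Xist term, in which WT array 3 alone stands for the WT group, left 1 member between the engrafted groups. Every probe set on its own gave 414 calls at the Ly6D step, and a filter on dim genes 5 members in WT against ProB. In Pax5KO against ProB, 1 member was called with averaged probe sets, without the engrafted arrays numbered 3, and with the replicate block, where Pax5 missed the threshold (adjusted p 0.0505). The labels do not say that the numbers pair arrays of different groups. The block also added Bach2 at the ProB step (1.50, adjusted p 0.0456 in limma) and Foxo1 in WT against ProB (1.46, 0.0401). Without both PreB arrays, WT against ProB kept 2 members. The cause was not tested for any of these.

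Leaving out each array in turn, a lone array being assumed to vary like the others, gave 676 to 1034 genes and 2 to 2 members between the engrafted groups, 694 to 1144 and 3 to 4 at the Ly6D step, 1060 to 2129 and 2 to 4 at the ProB step, and 1491 to 2695 and 3 to 4 at the PreB step. Pax5KO against ProB gave 565 to 1883 and 0 to 2, and WT against ProB 489 to 1825 and 0 to 3. Signs changed for members that were not called; none of the values of opposite sign was called either. Sox4 between the engrafted groups was 0.00 after quantile normalization, 0.19 with averaged probe sets and with weights, 0.26 without arrays 3, 0.24 with the Xist term, 0.05 without WT array 1 or 2, and -0.31 to 0.38 over all single arrays left out. Without single arrays, at the ProB step Ebf1 ran from -0.54 to 0.80 (-0.02 without Ly6D+ array 1) and Pax5 from -1.76 to 1.0 (0.11 without ProB array 1). For Pax5KO against ProB, Ebf1 ran from -1.31 to 0.03, Pou2af1 from -0.04 to 0.25 (-0.02 without ProB array 1) and Bcl11a from -0.59 to 0.45; Pou2af1 was -0.13 after quantile normalization and Bcl11a 0.08 with the block. For WT, Ebf1 ran from -0.17 to 1.17 and Bcl11a from -1.04 to 0.01. Of the 632 member values under alternatives, 538 kept direction and side of the threshold.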
